A study of Mus musculus with 5 samples.

Results

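The nucleoporins, which build the nuclear pore, and the importins, which carry cargo through it, were followed in prostate tumors of TripleTg mice with and without castration. Members were chosen by gene symbol from the 24527 genes of the deposited count table. The rule took symbols that begin with Nup, Kpna, Kpnb or Ipo followed by a digit, together with Tnpo1, Tnpo2, Tnpo3, Tpr, Ranbp2, Aaas, Ndc1, Pom121, Seh1l, Sec13 and Rae1. It gave 46 genes, 29 nucleoporins and 17 importins, and used no measured value, but was set with earlier results of these data known. Bulk RNA-seq had been performed on prostate tumors from 3 castrated and 2 intact mice of the genotype hHGFtg:H11hMET/+:Ctnnb1L(Ex3)/+:PBCre4. All 5 mice carried the same alleles. The hHGFtg allele supplies human HGF in all tissues. PBCre4, under the probasin promoter, switches on human MET and a stable form of β-catenin in the epithelium of the prostate. Mice of the castrated group were castrated at 4 months, and both groups were analyzed at 8 months. Library totals in the table were 28015507, 18951782 and 20492061 counts for the castrated mice (replicates 1, 2 and 3) and 21560355 and 22853501 counts for the intact mice (replicates 1 and 2). Values of a group are given in this order throughout.

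The nuclear pore complex is a channel through the nuclear envelope. Scaffold nucleoporins of the outer and inner rings hold its shape, membrane nucleoporins anchor it, and nucleoporins rich in phenylalanine-glycine (FG) repeats fill the channel and form the barrier. Importin alpha binds cargo that carries a nuclear localization signal and is taken through the pore by importin beta, encoded by Kpnb1, and Ran bound to GTP releases the cargo inside the nucleus. Rapidly dividing cells assemble new pores in every cycle. The study stained tumor cells with a pore antibody and named NUP62, NUP98 and NUP214 as its targets. Whether it binds other nucleoporins is not stated there. The transcripts of these proteins and of their partners were compared between castrated and intact tumors.

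Markers of cell types were examined first, since they bear on every comparison that follows. Transcripts of the epithelial markers Epcam, Cdh1, Krt8, Krt18, Krt19, Krt5 and Krt14 were present in all 5 samples, with a summed level of 3746, 3568 and 4524 CPM (counts scaled to library size with the trimmed mean of M-values, TMM) in the castrated mice and 5169 and 3919 CPM in the intact mice. Among prostate secretory markers, Tgm4 and Pbsn were high in intact replicate 2 only. Tgm4 was at 0.419, 0.0536 and 0.0487 CPM in castrated and 0.224 and 1347 CPM in intact samples. Fkbp5 ran the other way, at 71.5, 46.0 and 63.8 CPM in castrated and 87.8 and 17.2 CPM in intact samples, and Msmb had 0 counts in every sample. Intact replicate 1 thus stood apart from intact replicate 2 in markers of the labelled tissue. Markers of several other cell types lay higher in castrated samples. With the quasi-likelihood test of edgeR 0 of them passed the adjusted threshold, but so did 0 of all 14612 tested genes. Calls of these markers with other tools are not given here. Of 10 macrophage markers, 9 were above both intact samples in every castrated sample (17.0% of all tested genes were), and their sum was 2648, 7498 and 3031 CPM against 1137 and 1683, led by Lyz2. The groups were apart in the same direction for 7 of 8 smooth muscle markers, whose sum was 414, 723 and 667 CPM against 247 and 157, with Acta2 the highest in castrated and Tagln in intact samples. The same held for 7 of 11 adipocyte markers, whose sum was 63.8, 740.3 and 694 CPM against 51.8 and 98.8, led by Fabp4, and Cfd, Pck1 and Lep had 0 counts in both intact samples. For endothelial markers, 3 of 6 were apart in this direction, with a sum of 395, 286 and 330 CPM against 433 and 179, with Cdh5 the highest in mean CPM but below Pecam1 in 3 of 5 samples, and for T cell markers 1 of 7, a share below that of all tested genes, with a sum of 20.0, 57.0 and 58.5 CPM against 13.1 and 40.3, with Cd4 the highest in castrated replicates 2 and 3 and Lck or Cd8a in the others. The part of these cell types in the results below was not tested, and in bulk samples fewer cells of a type and less RNA per cell cannot be told apart.

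Nucleoporin and importin transcripts were mostly lower in castrated tumors, by small amounts that did not pass the test. Together the 46 genes took 0.3588%, 0.3686% and 0.3328% of all counts in the castrated samples, and 0.4171% and 0.3896% in the intact samples. Castrated samples were thus all below both intact samples. Of the 46 genes, 45 passed the filter on low counts, a CPM above 1 in at least 2 samples, and 40 of these 45 had a log2 fold change below 0, castrated over intact, where 52.1% of all 14612 tested genes did. The median log2 fold change was -0.19 for the members and -0.03 for all tested genes. In 16 members every castrated sample was below both intact samples, and in 0 members every castrated sample was above, where the shares of all tested genes were 16.1% and 17.0%. An adjusted p under 0.05 with an absolute log2 fold change above 1 was reached by 0 members and by 0 of all tested genes (0%), and the smallest adjusted p of a member was 0.330 (edgeR, quasi-likelihood, Benjamini-Hochberg). At an unadjusted p under 0.05, 3 members were lower and 0 higher, against 6.28% and 8.74% of all tested genes. DESeq2 called 0 members, where it called 989 of all tested genes (6.77%), and 6 members were lower at an unadjusted p under 0.05 with it, against 8.64% of all tested genes.

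**Figure D1:**
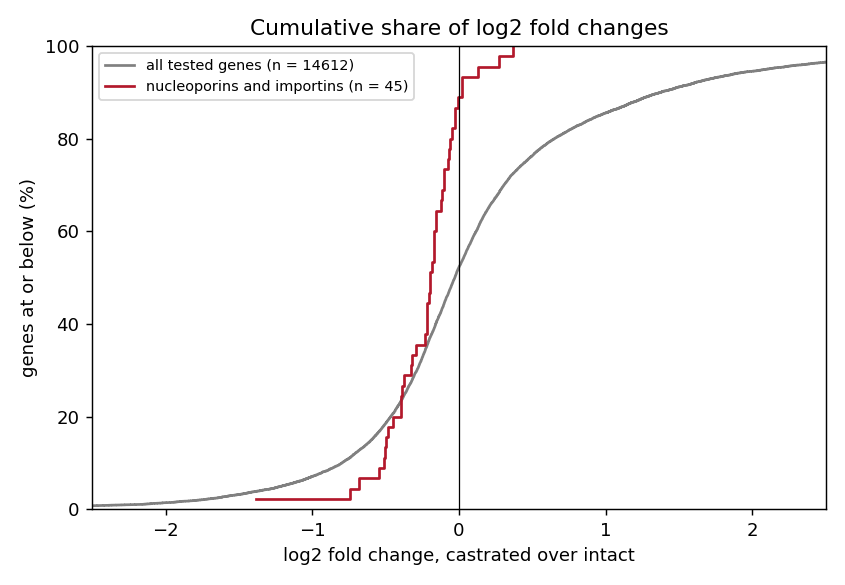
Cumulative share of genes (y axis, percent) at or below each log2 fold change, castrated over intact (x axis), for 45 nucleoporin and importin genes in red and all 14612 tested genes in grey. The red curve reaches 88.9% at 0, where the grey curve is at 52.1%.

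The size of these differences was close to that between the 2 intact mice. In 27 of 45 members the intact samples differed from each other by more than the fold change between groups. The median difference between the intact samples was 0.25 on the log2 scale, against a median absolute log2 fold change of 0.20. These are unlike measures, since a difference between single mice varies more than a difference between group means. The share of all tested genes with this pattern is not given, so the count is a description only. In 39 members the absolute log2 fold change was under 0.5, and in 42 its 95% interval included 0. Neither intact sample held the members' high values alone, since 28 of 45 were lower in intact replicate 1 than in intact replicate 2. The lowest castrated value was in replicate 1 for 20 members, in replicate 2 for 10 and in replicate 3 for 15. Without intact replicate 1, in which Tgm4 was low, 35 of 45 members had a log2 fold change below 0 (47.6% of all tested genes) and their median was -0.17. Without intact replicate 2 the numbers were 36 of 45 (49.3%) and -0.17.

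The count of lower members differed between settings. With library size alone in place of the trimmed mean, 38 of 45 members were lower (50.2% of all tested genes) and the members' median was -0.17. With that scaling 14 members were below and 0 above both intact samples in every castrated sample (15.3% and 17.9% of all tested genes). With limma on log2(TPM + 1), which changed the unit, the offset and the tool together and divides counts by gene length, the median of all tested genes was 0.12, a shift of 0.15 on the log2 scale, and the median of the members was -0.06. On that scale 28 of 45 members were lower (39.5% of all tested genes). In every castrated sample 7 members were below and 2 above both intact samples (10.7% and 20.5% of all tested genes), and the 2 above were Kpna6 and Ipo13. Relative to the median of all tested genes, 38 of 45 members were lower with both TMM and TPM, and the members' median lay 0.17 below that of all genes with the trimmed mean and 0.18 below it on TPM.

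**Figure D2:**
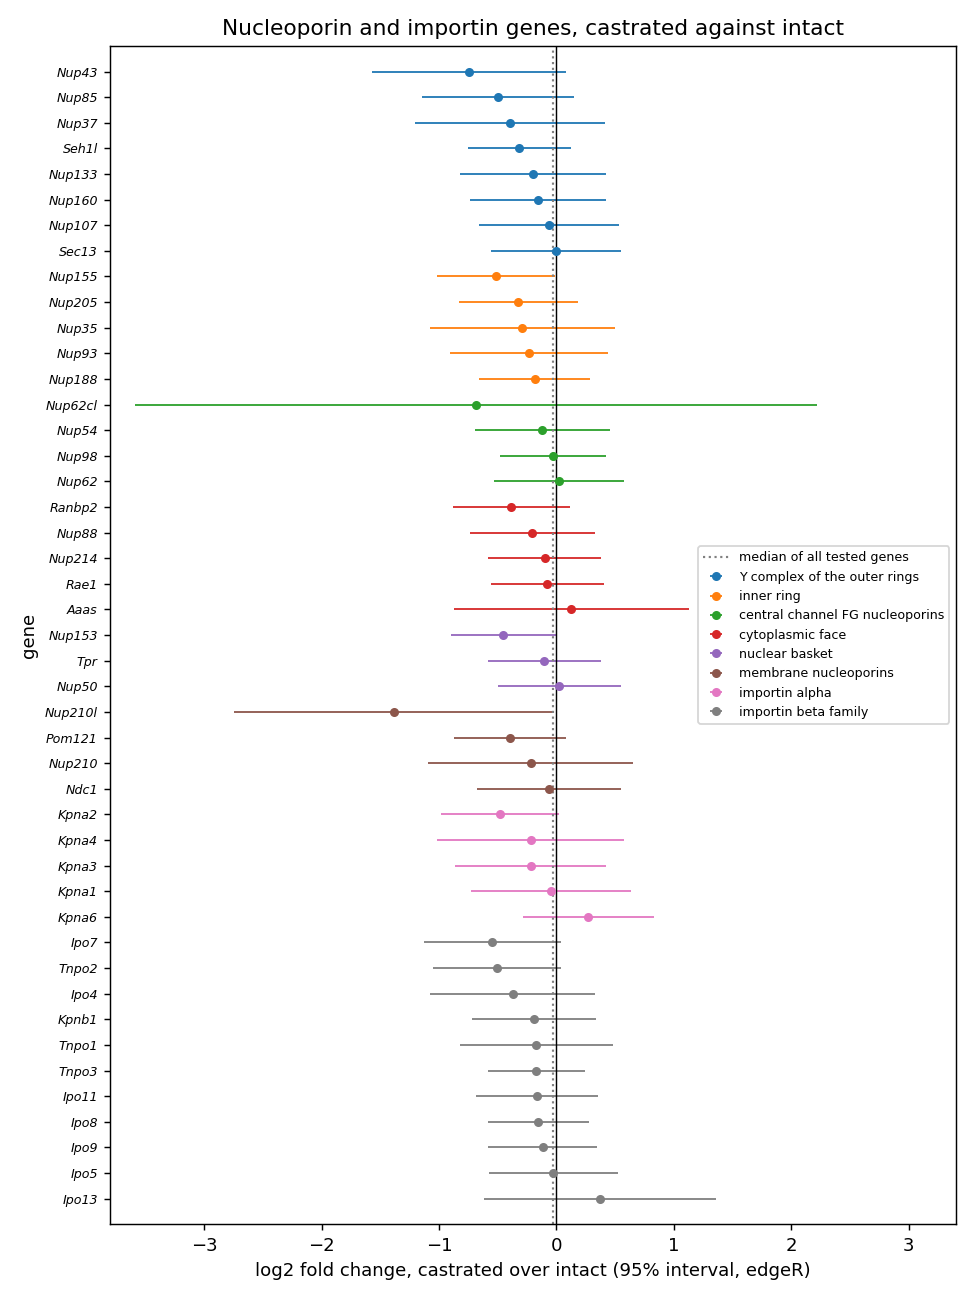
Log2 fold change of 45 members, castrated over intact (x axis), by role (colors), with 95% intervals from edgeR. The dotted line is the median of all tested genes, -0.03, and 42 of the 45 intervals include 0.

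The outer rings of the pore are built from copies of the Y complex. All 8 Y complex genes had a log2 fold change below 0, with a median of -0.26, and in 3 of them (Nup43, Nup85 and Seh1l) all castrated samples were below both intact samples, as in 16.1% of all tested genes. The median was -0.12 on TPM. Nup43, on chromosome 10 from 7667504 to 7678886 of mm10, had the largest difference of the complex. Its level was 13.1, 11.1 and 12.2 CPM in castrated and 14.8 and 25.8 CPM in intact samples. The castrated samples lay close together, whereas the intact samples differed more from each other than intact replicate 1 did from the castrated samples. Its log2 fold change was -0.74 with a standard error of 0.33 and an edgeR adjusted p of 0.360. All of Nup43 lies inside the span of Pcmt1 on the opposite strand, and it is not stated whether counting used strand. Nup85, another scaffold subunit, was at 23.7, 23.9 and 31.7 CPM in castrated and 32.3 and 42.5 CPM in intact samples. Castrated replicate 3 was only just below intact replicate 1. Seh1l, a subunit that the Y complex shares with the nutrient-sensing GATOR complex, was at 83.3, 96.0 and 90.3 CPM in castrated and 105 and 119 CPM in intact samples. Its groups did not overlap, with a log2 fold change of -0.32 (standard error 0.17). Nup37, Nup133, Nup160 and Nup107 were between -0.40 and -0.07 on the same scale with overlapping groups. Sec13, which also serves in the COPII coat of secretory vesicles, was at -0.0048 with a sign that turned on TPM and with library size only, and it had the highest level per length of all members, with a mean TPM of 164 over the 5 samples.

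The inner ring joins the outer rings to the membrane and to the central channel. All 5 of its genes were lower in the mean of castrated samples, with a median log2 fold change of -0.29, and in Nup155, Nup205 and Nup188 all castrated samples were below both intact samples (16.1% of all tested genes). The median was -0.46 without intact replicate 1, -0.19 without intact replicate 2 and -0.13 on TPM. Nup155, on chromosome 15 from 8109313 to 8159859, encodes a scaffold protein that pore assembly requires. It was at 31.7, 39.0 and 39.2 CPM in castrated and 53.4 and 51.2 CPM in intact samples. The intact samples were close to each other and above all castrated samples, of which replicate 1 was the lowest. The log2 fold change was -0.51 with a standard error of 0.20, and edgeR gave an unadjusted p of 0.0470 and an adjusted p of 0.330. Nup205, a large scaffold protein of the same ring, was at 45.7, 46.0 and 48.5 CPM in castrated and 50.6 and 66.3 CPM in intact samples. Here the castrated samples were nearly equal, and intact replicate 1 exceeded the highest of them by a small margin. Nup188, a relative of Nup205, had a log2 fold change of -0.18. Nup93, the linker of the ring, and Nup35 were at -0.23 and -0.29 with overlapping groups.

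Membrane nucleoporins anchor the pore in the nuclear envelope. All 4 genes of this group were below 0, with a median log2 fold change of -0.31. Nup210l, on chromosome 3 from 90104138 to 90212151, is a relative of Nup210 and was close to the filter, with 26, 29 and 25 counts in castrated and 95 and 46 counts in intact samples. Its level was 0.907, 1.55 and 1.22 CPM in castrated and 4.26 and 2.14 CPM in intact samples. All castrated samples were below both intact samples, and intact replicate 1 was far above intact replicate 2. The log2 fold change was -1.39 with a standard error of 0.54, and edgeR gave an unadjusted p of 0.0469 and an adjusted p of 0.330. This fold change was the largest in size among the members. Pom121, a transmembrane nucleoporin with FG repeats, was at 47.5, 52.8 and 44.0 CPM in castrated and 67.3 and 58.9 CPM in intact samples. Its groups did not overlap, and its log2 fold change was -0.39 (standard error 0.19). Nup210 itself, also known as gp210, was at 15.9, 22.0 and 27.5 CPM in castrated and 31.0 and 19.9 CPM in intact samples. Castrated replicates 2 and 3 lay above intact replicate 2, and the sign of its log2 fold change, -0.22, turned when intact replicate 1 was left out. Ndc1, a transmembrane subunit needed for pore assembly, was at 18.2, 23.5 and 23.0 CPM in castrated and 23.7 and 21.4 CPM in intact samples. These groups overlapped, with a log2 fold change of -0.06 that turned in sign on TPM and without castrated replicate 1 or intact replicate 1.

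The central channel genes include those of the antibody's targets NUP62 and NUP98. The median log2 fold change of the 4 genes was -0.07, the closest to 0 of the pore's groups, and it was above 0 on TPM, with the replicate block and without castrated replicate 1 or intact replicate 2. Nup62, on chromosome 7 from 44816088 to 44831836, encodes the FG nucleoporin at the core of the channel. Its level was 31.4, 40.9 and 32.4 CPM in castrated and 33.7 and 35.1 CPM in intact samples. Castrated replicate 2 was the highest and castrated replicate 1 the lowest of all 5. The log2 fold change was 0.02, with a 95% interval of -0.54 to 0.58, so differences of either direction within that range were compatible with the data. Nup98, on chromosome 7 from 102119400 to 102210166, encodes an FG nucleoporin found on both faces of the pore. It was at 109, 129 and 113 CPM in castrated and 114 and 125 CPM in intact samples. The groups overlapped, and the log2 fold change was -0.03 with a 95% interval of -0.48 to 0.42, and its sign turned on TPM. Nup54, the partner of Nup62, was at -0.12. Nup62cl, a relative of Nup62, had 42, 40 and 49 counts in castrated samples and 5 and 133 in the intact samples. Castrated samples lay between the intact samples, and the log2 fold change, -0.68 with a standard error of 1.15, was 3.08 without intact replicate 2.

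On the cytoplasmic face, Nup214 encodes the last of the antibody targets that the study named. Nup214, on chromosome 2 from 31974450 to 32053975, encodes a protein that anchors export factors at the mouth of the pore, and was at 45.4, 41.3 and 49.0 CPM in castrated and 45.8 and 51.2 CPM in intact samples. The groups overlapped, and the log2 fold change was -0.10 with a 95% interval of -0.58 to 0.38, and its sign turned on TPM. Ranbp2, on chromosome 10 from 58446852 to 58494154, encodes the large Ran-binding and SUMO ligase protein of the cytoplasmic filaments and was at 254, 251 and 208 CPM in castrated and 314 and 307 CPM in intact samples. In contrast to Nup214, all castrated samples of Ranbp2 were below both intact samples, with replicate 3 the lowest, and the log2 fold change was -0.39 with a standard error of 0.20 and an edgeR adjusted p of 0.407. Nup88, the binding partner of Nup214, was at -0.20, Rae1, an mRNA export factor, was at -0.08, and Aaas was at 0.13. For Aaas, castrated replicate 1 was the highest of all 5 samples, and the log2 fold change was -0.26 without that sample. The median of the 5 genes was -0.10 and turned to 0.03 on TPM.

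The nuclear basket holds Nup153, Tpr and Nup50, with log2 fold changes from -0.45 to 0.02. Nup153, on chromosome 13 from 46679902 to 46727849, encodes the basket protein that binds importins and chromatin. It was at 106, 121 and 99.4 CPM in castrated and 150.3 and 147 CPM in intact samples. The intact samples were nearly equal and lay above all castrated samples. The log2 fold change was -0.45 with a standard error of 0.18, and edgeR gave an unadjusted p of 0.0484 and an adjusted p of 0.332. Tpr, the filament protein of the basket, was at 204, 226 and 242 CPM in castrated and 226 and 255 CPM in intact samples. Castrated replicates 2 and 3 were between the intact samples, replicate 2 only just, and the log2 fold change was -0.10 with a 95% interval of -0.58 to 0.38, and its sign turned on TPM. Nup50, a cofactor of cargo release, was at 0.02. Whether Nup153 differed from Tpr or Nup50 in its fold change was not tested, and the median of the 3 genes, -0.10, was 0.03 on TPM.

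**Figure D3:**
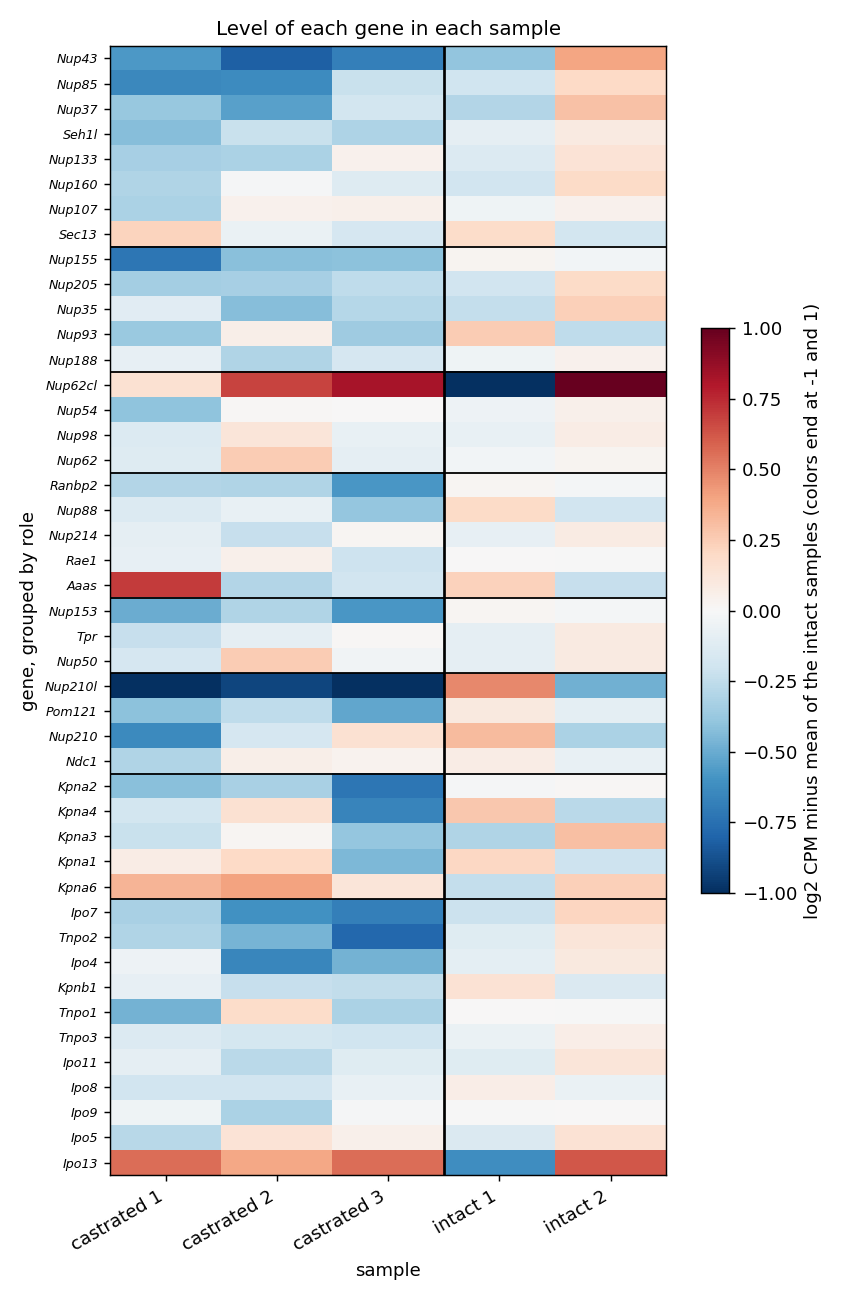
Log2 CPM of 45 members (rows, grouped by role in the order of the fold change plot) in each of the 5 samples (columns), relative to the mean of the intact samples. Blue is lower and red higher, and colors end at -1 and 1. Blue prevails in castrated columns, and the strongest red is in Nup62cl, Ipo13 and Aaas.

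Among the importins, 14 of 16 tested genes were lower in the mean of castrated samples, with a median log2 fold change of -0.17 that was -0.046 on TPM, and in 6 all castrated samples were below both intact samples (16.1% of all tested genes). Importin alpha adaptors recognize the localization signal. Kpna2, on chromosome 11 from 106988629 to 106999525, encodes the adaptor often found high in dividing cells, and was at 50.6, 54.2 and 40.9 CPM in castrated and 67.3 and 68.1 CPM in intact samples. All castrated samples were below both intact samples, which were nearly equal. The log2 fold change was -0.48 with a standard error of 0.20 and an edgeR adjusted p of 0.347. Kpna4, Kpna3 and Kpna1 were at -0.22, -0.22 and -0.05 with overlapping groups, and each turned in sign when 1 of the intact samples was left out. Kpna6 was at 0.27, the second-highest value of a member. Kpna7, an adaptor of oocytes and early embryos, had 0 counts in all 5 samples, which allows a level of up to 0.105 to 0.161 CPM in a sample (3 counts, counting error only). The median of the 5 adaptors tested was -0.22, and it was 0.08 without intact replicate 1.

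The makeup of the adaptor pool does not depend on how libraries are scaled. Kpna4 was the largest share of the summed TPM of the adaptors, from 32.4% to 43.5% over the samples. Kpna2 was 16.4%, 15.2% and 17.2% of it in castrated samples, and 18.9% and 20.8% in intact samples. Kpna6 was 12.7%, 11.5% and 14.1% in castrated samples, and 7.39% and 11.2% in intact samples. Thus every castrated sample had a lower share of Kpna2 and a higher share of Kpna6 than either intact sample, while for Kpna1, Kpna3 and Kpna4 the groups overlapped.

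The importin beta family holds the carriers that pass through the pore. Of its 11 genes, 10 were below 0 with a median log2 fold change of -0.17 that was -0.037 on TPM, and in Ipo7, Tnpo2, Tnpo3, Ipo8 and Ipo9 all castrated samples were below both intact samples (16.1% of all tested genes). For Ipo9 the gap was small, from 94.7 CPM in the highest castrated to 95.3 CPM in the lowest intact sample. Ipo7, on chromosome 7 from 110018315 to 110056607, encodes a carrier of ribosomal proteins and histones, and was at 234, 193 and 182 CPM in castrated and 253 and 340.1 CPM in intact samples. Castrated replicate 1 came near intact replicate 1, and intact replicate 2 was well above the rest. The log2 fold change was -0.55 with a standard error of 0.23 and an edgeR adjusted p of 0.351. Tnpo2, on chromosome 8 from 85036893 to 85057582, encodes a transportin for RNA-binding proteins and was at 111, 99.1 and 79.5 CPM in castrated and 126 and 148 CPM in intact samples. Its groups did not overlap, with a log2 fold change of -0.51 (standard error 0.22). Kpnb1, on chromosome 11 from 97159710 to 97187892, encodes importin beta itself and had the highest mean CPM of the members, 339.9, 307 and 304 in castrated and 399.8 and 325 in intact samples. Castrated replicate 1 lay above intact replicate 2, where Ipo7 exceeded Kpnb1, and the log2 fold change was -0.19 with a 95% interval of -0.72 to 0.34. Ipo13, a carrier that works in both directions, was the highest member at 0.37, and its sign turned to -0.10 without intact replicate 1, in which it was lowest. Ipo4, Ipo5, Ipo11 and Tnpo1 lay between -0.37 and -0.03.

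**Figure D4:**
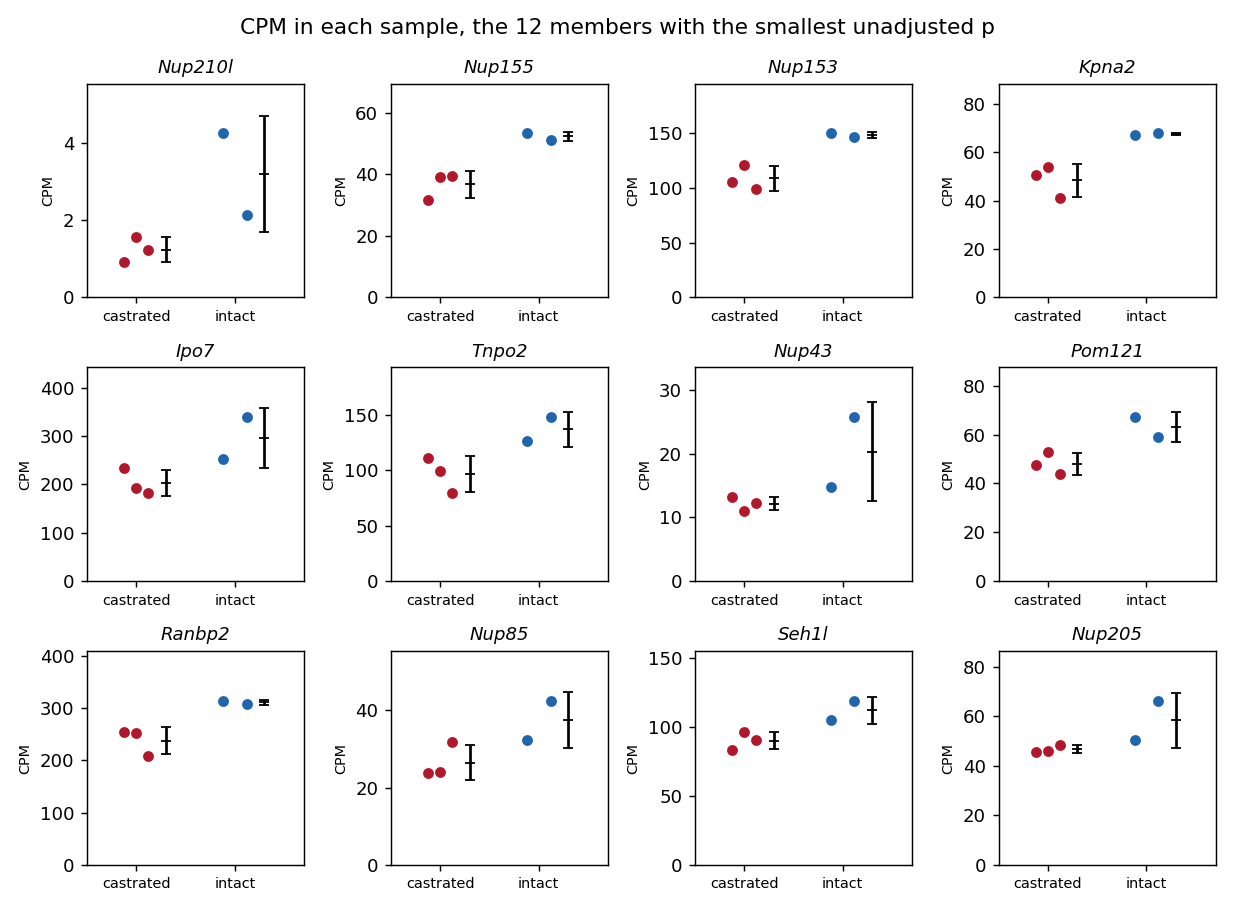
CPM in each sample (y axis, from 0) for the 12 members with the smallest unadjusted p, with castrated samples in red and intact samples in blue. Black marks are means with the SD (n = 3 and n = 2). In all 12 panels the castrated samples are below both intact samples.

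Per length, pore and carrier genes spanned a wide range of levels. After Sec13, the highest mean TPM over the 5 samples was that of Kpna4 (135), Kpnb1 (129.8), Ipo7 (114) and Tnpo1 (101). These are all carriers. The basket and filament genes Tpr, Ranbp2 and Nup153 had a mean TPM of 69.5, 63.9 and 46.9, and the channel genes Nup62, Nup98 and Nup54 had 21.0, 32.7 and 30.6. At the low end were Nup35 (8.43), Nup210 (7.63), Nup62cl (4.66) and Nup210l (0.801). Over the members, the highest of the 5 samples exceeded the lowest by a median of 1.51-fold in CPM. Levels of some members are uncertain, since the spans of 9 of them overlap a gene on the opposite strand. Very long genes were left out of this count. Examples are Atf5 for Nup62 (571 bases shared), Irf5 for Tnpo3 (1043 bases) and Fam78a for Nup214 (3921 bases). Only reads in a shared stretch cannot be told apart without strand.

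Start site sequences are shown for Nup155, Nup153 and Kpna2, the pore, basket and adaptor genes with the smallest unadjusted p and higher counts, and for Nup62, which differed little. Each runs from 250 bases before to 50 bases after the RefSeq start on GRCm38.p6, 5′ to 3′ on the gene's strand. Capitals mark matches, on either strand, to the GC box GGGCGG, the CCAAT box CCAAT, the E-box CACGTG and the cell cycle element TTTGAA. They lie at chr15:8109063-8109362 (+ strand) for Nup155, chr13:46727800-46728099 (- strand) for Nup153, chr11:106999476-106999775 (- strand) for Kpna2 and chr7:44815838-44816137 (+ strand) for Nup62.
Nup155: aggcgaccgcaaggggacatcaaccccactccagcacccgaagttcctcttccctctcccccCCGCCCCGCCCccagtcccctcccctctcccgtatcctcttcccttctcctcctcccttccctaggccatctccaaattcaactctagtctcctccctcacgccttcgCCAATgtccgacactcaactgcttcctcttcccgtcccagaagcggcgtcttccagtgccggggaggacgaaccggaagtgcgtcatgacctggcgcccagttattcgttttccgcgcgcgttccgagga
Nup153: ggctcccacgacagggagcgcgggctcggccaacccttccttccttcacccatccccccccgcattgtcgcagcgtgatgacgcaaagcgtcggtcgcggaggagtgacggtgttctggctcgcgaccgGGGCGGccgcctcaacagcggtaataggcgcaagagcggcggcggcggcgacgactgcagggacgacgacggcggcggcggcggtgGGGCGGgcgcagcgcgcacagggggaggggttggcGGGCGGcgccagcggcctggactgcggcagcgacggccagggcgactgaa
Kpna2: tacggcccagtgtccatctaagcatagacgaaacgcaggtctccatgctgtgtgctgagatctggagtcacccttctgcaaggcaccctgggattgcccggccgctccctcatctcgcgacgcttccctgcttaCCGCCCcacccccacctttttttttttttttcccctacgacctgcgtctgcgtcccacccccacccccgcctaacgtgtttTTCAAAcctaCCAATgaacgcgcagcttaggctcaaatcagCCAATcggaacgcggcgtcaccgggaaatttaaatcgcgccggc
Nup62: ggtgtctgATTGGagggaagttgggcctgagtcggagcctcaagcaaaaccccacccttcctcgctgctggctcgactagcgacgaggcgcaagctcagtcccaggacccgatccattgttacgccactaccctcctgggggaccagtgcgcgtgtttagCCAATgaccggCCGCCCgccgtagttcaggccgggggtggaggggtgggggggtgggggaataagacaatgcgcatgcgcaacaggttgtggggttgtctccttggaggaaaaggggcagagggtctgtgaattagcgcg
Of these, Kpna2 alone held a match to TTTGAA, which begins 35 bases before its start, and it also held CCAAT matches that begin 25 bases before and 6 bases after it. Nup155 held a CCAAT match and a pair of GC boxes that share a base, Nup153 held 3 GC boxes and no CCAAT match, and Nup62 held 2 CCAAT matches and a GC box. None of the 4 held CACGTG.

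RefSeq start regions of this length were matched for 38 of the 46 members and 11526 tested genes. The GC box was in 63.2% of the members' regions and 62.2% of those of all tested genes. The CCAAT box was in 50% against 38.2%, CACGTG in 18.4% against 9.8%, and TTTGAA in 28.9% against 12.4%. A match is a description of the letters and no evidence of binding, and these shares were not tested.

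Exportins and the Ran cycle serve the other direction of transport and the gradient that drives both. All 13 of their genes had a log2 fold change below 0, with a median of -0.28 that ranged from -0.70 for Ran to -0.05 for Ranbp3, and in 4 all castrated samples were below both intact samples (16.1% of all tested genes). These were Ran, Ranbp1, Nutf2 and Xpo1. Ran, the GTPase of the system, was at 244, 172 and 154 CPM in castrated and 338 and 280.0 CPM in intact samples. It was the only gene of this list with an unadjusted p under 0.05, and edgeR's adjusted p for it was 0.327. Xpo1, the exportin that the study targeted with an inhibitor, was at 109.7, 133 and 127 CPM in castrated and 139 and 163 CPM in intact samples, with a log2 fold change of -0.30 (standard error 0.19). All castrated samples were below both intact samples for Ran and for Xpo1.

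Factors of mRNA export and other pore-associated genes differed more than the members did, without a test of that difference. Their list was chosen with earlier results of these data known. Of 19 tested genes of 20, 16 were below 0, with a median log2 fold change of -0.44, all castrated samples were below both intact samples in 12 (16.1% of all tested genes), and 6 were lower at an unadjusted p under 0.05 from edgeR (6.28%). The values ran from -0.98 for Gle1, an activator of the export helicase, to 0.21 for Snupn, the import adaptor of spliceosomal particles. Gle1 was at 47.9, 45.9 and 45.5 CPM in castrated and 132 and 52.0 CPM in intact samples, so intact replicate 1 stood far above the rest. Nxf1, the main mRNA export receptor, was at 91.6, 88.0 and 104 CPM in castrated and 151 and 181 CPM in intact samples. Its groups were well apart, with a log2 fold change of -0.81 with a standard error of 0.19 and an edgeR adjusted p of 0.289.

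Proliferation genes had larger differences than the members and the other transport lists, without a test of that contrast. This list, too, was chosen with earlier results of these data known. All 15 were below both intact samples in every castrated sample (16.1% of all tested genes) and 14 were lower at an unadjusted p under 0.05 from edgeR (6.28%), with a median log2 fold change of -1.65 and a range from -2.49 for Cenpf to -0.38 for Pcna. Their summed level was 176, 243 and 263 CPM in castrated against 500.4 and 616 CPM in intact samples. Mki67, Cdk1 and Cenpf passed the adjusted threshold with DESeq2 (6.77% of all tested genes did) and with the likelihood ratio test (2.53%), but not with the quasi-likelihood test. Their log2 fold changes were -1.94, -1.63 and -2.48 with DESeq2. Calls of the other proliferation genes with these tools are not given here. The mean level of the members in each sample, relative to the mean of the intact samples, was -0.23, -0.15 and -0.23 on the log2 scale for castrated mice and -0.08 and 0.08 for intact mice. The sample with the lowest proliferation level, castrated replicate 1, also had the lowest level of nucleoporins, -0.30, but castrated replicate 3, with the highest proliferation level of the castrated samples, had the lowest level of importins, -0.28. The part of proliferation in the members' values was not tested.

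**Figure D5:**
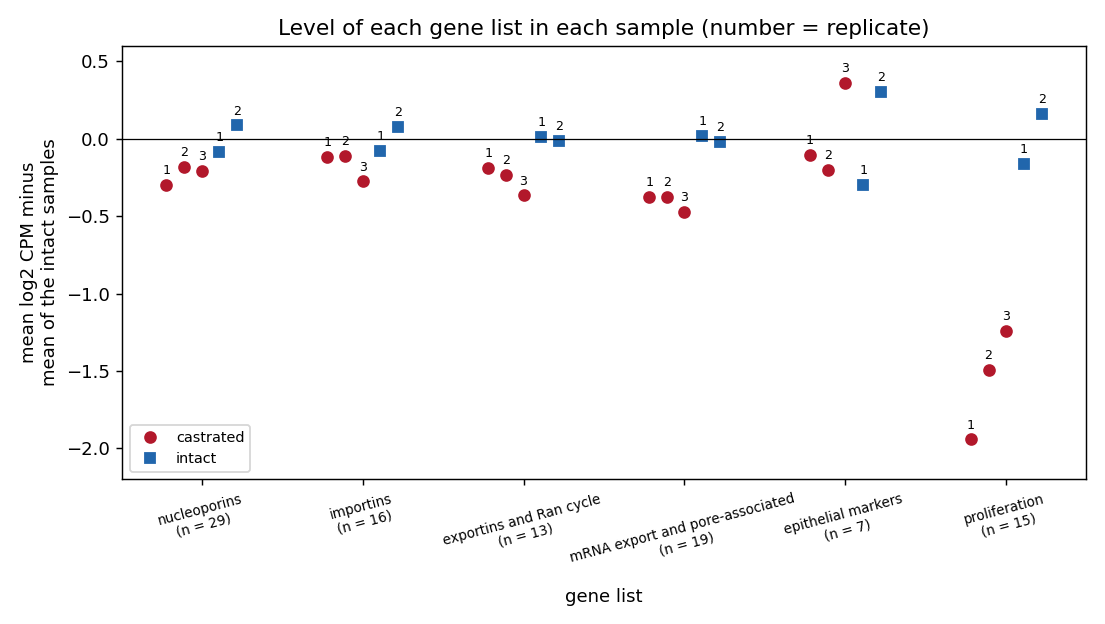
Mean log2 CPM of each gene list in each sample, relative to the mean of the intact samples (y axis), with castrated samples as red circles and intact samples as blue squares, numbered by replicate. Nucleoporins in castrated samples sit between -0.30 and -0.18 and proliferation genes between -1.94 and -1.24, while epithelial markers overlap between the groups.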

How the data were processed

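The authors depleted ribosomal RNA, used Trimmomatic 0.39 on the paired-end reads, STAR 2.7.9 with mm10 for alignment and HTSeq 2.0.2 for gene counting. They deposited raw counts for 24527 genes, without normalization, with a gene length in kilobases. Counts were tested with R 4.3.3, edgeR 4.0.16 (quasi-likelihood F-test, TMM), limma 3.58.1 and DESeq2 1.42.0, since the study's methods name TPM but the table holds counts. The filter kept 14612 genes that exceeded a CPM of 1 in 2 or more samples, and p-values were adjusted over all of them. The standard error is the size of the log2 fold change over the square root of F. Sample levels on a log2 scale use a prior count of 2. The 2 groups were grouped by their labels, and all samples were used. The smallest chi-square per gene between samples of a group was 116, so none was a repeat of another library. The common dispersion was 0.238, so differences between mice set the precision. Members and lists were chosen with earlier results of these data known. Values in every sample are given for the 12 members with the smallest unadjusted p, for Nup62, Nup98, Nup214, Tpr, Nup153, Nup210, Ndc1, Kpna2, Kpnb1 and Ranbp2, and for members near the filter. Scalings, filters, tools, a replicate block and leaving out each replicate were tried as alternatives. The older quasi-likelihood fit and log2(TPM + 1) with limma were added after seeing the data. The procedures were tested on simulated data. A prostate secretory marker is not reported here.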

Additional observations from a re-analysis of the deposited data

How the results depend on the processing

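Members called numbered 0 with every alternative, and the members' median log2 fold change stayed between -0.158 and -0.2045 in all of them except log2(TPM + 1) with limma. All 5 samples are separate mice, 3 against 2, so p-values rest on few animals, the intact samples differ in tissue markers, and small fold changes could not be resolved at this spread. Of 673 values of single members under alternatives, 625 kept their direction and 48 were reversed, in 22 of the 45 members. The cause of each change was not tested.

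Of all genes, 989 (703 higher, 286 lower) were called with DESeq2 and 369 (276 higher, 93 lower) with the likelihood ratio test, against 0 with the quasi-likelihood test, and between 0 and 1 when a replicate was left out (1 without intact replicate 1). Members at an unadjusted p under 0.05 numbered 3 (6.28% of all genes were lower at that p), but 0 with library size only (5.84%), 0 without a filter (5.74%), 0 with CPM above 5 (5.99%) and 0 on TPM (3.53%). They numbered 6 with DESeq2 (8.64%), and 1 each with the likelihood ratio test (5.06%), voom (5.4%) and the older fit (5.93%), all lower. Leaving out a replicate gave 0 to 3, with 0 without castrated replicate 1, 2 or 3. With a single intact library left, the spread comes from the castrated samples and that library is assumed to vary like them. Without intact replicate 1 these were Ipo7, Nup43 and Nup62cl, all lower (10.5% of all genes were lower at that p), and without intact replicate 2 Nup210l was lower (6.62%) and Ipo13 and Nup62cl were higher (7.47%), so the library left in decides the direction of Nup62cl. At an unadjusted p under 0.05, 5.78%, 2.67% and 2.68% of all genes were lower without castrated replicate 1, 2 and 3. Members with groups apart numbered 9 on TPM (10.7% of all genes were below and 20.5% above), and 19 to 28 when a replicate was left out. Without castrated replicate 1, 19 members were below and 1 above (24.7% and 25.1% of all genes). Without castrated replicate 2 these were 19 and 0 (19.7% and 20%), and without castrated replicate 3 they were 19 and 1 (18.5% and 19.2%). Without intact replicate 1 there were 27, 26 below and 1 above (35.6% and 36.4% of all genes), and without intact replicate 2 there were 28, 25 below and 3 above (34.4% and 33% of all genes).

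On TPM, the members' median log2 fold change was -0.055, with -0.064 for nucleoporins, -0.046 for importins, -0.037 for the importin beta family, -0.12 for the Y complex and -0.13 for the inner ring, and reversed values were 0.028 for the cytoplasmic face median, 0.029 for the nuclear basket median, 0.12 for the central channel median, 0.10 for Ipo5, 0.0076 for Ipo9, 0.071 for Kpna1, 0.059 for Ndc1, 0.055 for Nup107, 0.028 for Nup214, 0.0019 for Nup54, 0.32 for Nup62cl, 0.099 for Nup98, 0.051 for Rae1, 0.13 for Sec13, 0.029 for Tpr and 0.077 for Ranbp3. Library size only gave 0.0035 for Ipo5 and 0.013 for Sec13. CPM above 5, which dropped Nup210l and Nup62cl, gave 0.00076 for Ipo5 and 0.020 for Sec13. Voom gave -0.00044 for Nup62 and 0.67 for Nup62cl.

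Same-numbered samples are different mice, and no label pairs them. The correlations of their deviations were 0.15 for replicate 1 and -0.05 for replicate 2. With 2 intact samples, the deviation of 1 mirrors that of the other. These correlations therefore cannot tell whether the replicate numbers pair the samples. With the replicate block, 0 members had an unadjusted p under 0.05, where 1.83% of all genes were lower and 5.32% higher at that p. With it 37 members were lower (48.7% of all genes) and the members' median was -0.16. The replicate block reversed values to 0.025 for the central channel median, 0.14 for Kpna1, 0.31 for Nup62cl, 0.078 for Sec13 and 0.0037 for Ranbp3.

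With a replicate left out, log2 fold changes ranged from -0.14 to 0.016 for the central channel median, -0.26 to 0.40 for Aaas, -0.14 to 0.089 for Ipo5, -0.17 to 0.046 for Ndc1, -0.12 to 0.048 for Nup107, -0.18 to 0.0071 for Nup54, -0.097 to 0.024 for Nup98, -0.093 to 0.11 for Nup50, -0.10 to 0.091 for Nup62, -0.22 to 0.21 for Sec13, -0.29 to 0.20 for Kpna1, -0.078 to 0.011 for Ranbp3, -0.32 to 0.076 for the importin alpha median, -0.46 to -0.19 for the inner ring median, -0.10 to 1.09 for Ipo13, -0.51 to 0.099 for Kpna4, -0.55 to 0.15 for Nup210, -0.43 to 0.019 for Nup88, -0.51 to 0.066 for Nup93, -0.47 to 0.075 for Kpna3, -0.32 to 0.0066 for Nup160 and -1.61 to 3.08 for Nup62cl.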

Other observations

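Nupl1, an older symbol of the channel nucleoporin Nup58, is a pore gene outside the members and was listed with 0, 0 and 1 counts in the castrated mice and 0 and 1 counts in the intact mice. The gene is generally expressed, and the reason for its low counts was not tested, so these counts are not read as absence of its transcript. Nupl2, an older symbol of Nup42, had 238, 151 and 173 counts in castrated and 227 and 272 in intact samples. Both were looked up after the symbols Nup58 and Nup42 had not been found in the table.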
